A study of Rattus norvegicus with 15 samples.

Results

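The comparison described here sets rat spermatogonial stem cells given GDNF back for 8 h against cells left without it, the latest response to GDNF return that was sampled. It uses 6 of the 15 arrays of the study, 3 labelled GDNF 8hr Replacement and 3 labelled GDNF Withdrawal, chosen by those labels alone. GDNF stands for glial cell line-derived neurotrophic factor, and the cells had grown with it for about a month in medium without serum. The withdrawal group then spent 18 h without GDNF, and the replacement group spent the same 18 h without it followed by 8 h with it. Each array is from an independent culture. The other groups, also with 3 arrays each, are a control kept with GDNF and cultures given GDNF back for 2 h or 4 h after the 18 h. They place the 8 h values, and they also enter the low-value filter and the shared estimate of spread in the fit. The replacement cultures were harvested 8 h later than the withdrawal cultures, and no group kept without GDNF for those further 8 h is analysed here, so time since withdrawal and GDNF cannot be told apart.

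GDNF is made by the somatic cells around the stem cells of the testis and binds a co-receptor, GFRA1, which brings in the receptor tyrosine kinase RET. RET signals through adaptor proteins to the ERK and PI3K-AKT pathways and SRC family kinases, and in spermatogonial stem cells these raise transcription factors such as Bcl6b, Etv5 and Id4 and favour self-renewal over differentiation. AKT also keeps FOXO transcription factors out of the nucleus, and ERK switches on inhibitors of its own pathway.

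Values are intensities of Affymetrix probe sets on the linear scale, and a log2 change is the 8 h mean minus the withdrawal mean. A gene is represented by its brightest tested probe set, and "rose" or "fell" means an adjusted p under 0.05 in a limma fit with Benjamini-Hochberg adjustment over all 15856 probe sets tested. Intensities under 16 lie in the range where the background estimate dominates, so changes that reach below 16 are given with that stated. Between 50.2% and 50.4% of probe sets reached 16 on each of the 6 arrays. General germ cell genes were high in both groups, with a mean log2 level of the 6 tested members of 12.08 ± 0.03 after withdrawal and 12.05 ± 0.02 at 8 h (SD, n = 3), and none of the 6 passed the test. The 5S ribosomal RNA control probe set was lower on every array at 8 h than on any after withdrawal, by 0.70 on the log2 scale from an 8 h level of 10.30 ± 0.03 (SD, n = 3), with an exact two-sided permutation p of 0.1, the smallest that 3 arrays against 3 allow. The beta-actin 3' minus 5' difference (2.17 to 2.24 after withdrawal, 1.98 to 2.16 at 8 h, log2) and the mean of the hybridization spikes (10.61 to 10.94 and 10.96 to 11.06) did not overlap between the groups either, each with an exact permutation p of 0.1. The part of these measures in the results was not tested. Mesenchymal markers were lowest in replicate 1 of the withdrawal group, with a mean log2 level of 8.05 over the 14 tested, against 8.73 and 8.86 in the other withdrawal arrays and 8.64 to 8.92 at 8 h. That array also had the lowest score on the main component of variation within groups (-0.49). Replicate 1 scored negative on it in the other groups too, with -0.39 at 4 h, -0.32 in the control, -0.11 at 2 h and -0.04 at 8 h.

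After 8 h of GDNF 3963 of 15856 probe sets (25.0%) differed from withdrawal, 1526 higher and 2437 lower. Of these 145 rose and 34 fell at least 2-fold, so the larger changes were mostly rises while the greater number were small falls. With each array's median subtracted 1961 were higher and 1915 lower, and with quantile normalization 1755 were higher and 2156 lower, so the excess of falls depends on the scaling. Among 9002 named genes 2647 (29.4%) passed, 913 higher (10.1%) and 1734 lower (19.3%). The arrays of both groups did not overlap for 46.4% of named genes, and the median change of all named genes was -0.04. All 3 withdrawal arrays were under 16 for 25 of the 913 genes that rose, and all 3 arrays at 8 h for 17 of the 1734 that fell.

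S100a3, a calcium-binding S100 protein, read 2.84, 2.27 and 2.74 after withdrawal and 78.9, 48.5 and 81.8 at 8 h. Myh2, a myosin heavy chain of fast skeletal muscle, read 8.53, 7.88 and 7.96 after withdrawal and 126, 76.2 and 101.7 at 8 h. Both were under 16 on every withdrawal array, and with values under 16 set to 16 their log2 changes were 2.08 and 2.63 in place of 4.71 and 3.61. On that scale the rise of S100a3 is smaller than those of Epas1 (2.44), Plaur (2.40) and Fblim1 (2.37), so its place as the largest rise rests on values under 16. S100a3 and Myh2 were also low in the control, with means of 5.56 and 8.40.

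Epas1 codes for HIF-2 alpha, an oxygen-regulated transcription factor. It read 59.9, 53.2 and 56.1 after withdrawal and 308, 279.6 and 329.6 at 8 h, groups far apart. The rise was 5.42-fold (log2 change 2.44 ± 0.14 SE, limma adjusted p = 1.55e-08), and the 8 h level was 2.00-fold above the control (adjusted p = 0.000299). Fblim1, which links filamin to cell-matrix junctions, read 31.8, 31.1 and 20.6 after withdrawal and 147, 139.8 and 138.7 at 8 h. Its rise of 5.18-fold (adjusted p = 3.12e-07) brought it to a level not distinguished from the control (log2 difference 0.09 ± 0.18 SE). Plaur, the receptor for urokinase, read 23.5, 67.5 and 58.4 after withdrawal and 239, 244 and 231 at 8 h. The log2 change was 2.40 (adjusted p = 2.18e-05), or 1.92 without replicate 1 of the withdrawal group, the array with the lowest Plaur and the lowest mesenchymal markers.

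Bcl6b, a transcriptional repressor needed for stem cell maintenance in mouse spermatogonial cultures, read 179, 133 and 179.6 after withdrawal and 665, 682 and 583 at 8 h. The 3.95-fold rise (log2 change 1.98 ± 0.11 SE, limma adjusted p = 1.18e-08) was seen with similar size in its 3 other probe sets (1.89 to 1.98). Its 8 h mean of 643 ± 52.7 (SD, n = 3) was still 2.47-fold under the control mean of 1588 ± 52.4 (adjusted p = 2.46e-06). Gpx2, an epithelial glutathione peroxidase, read 229, 232 and 242 after withdrawal and 791, 783 and 831 at 8 h, a 3.42-fold rise with the arrays of each group close together (adjusted p = 6.14e-10).

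The other genes among the 12 largest rises were 3.57-fold to 4.39-fold higher. RT1-T24-4, a class I histocompatibility gene, went from 14.7 ± 2.61 to 64.2 ± 8.73, with withdrawal arrays partly under 16. Sfn, which codes for 14-3-3 sigma, went from 37.6 ± 2.04 to 150.1 ± 5.74. Upk1b, a tetraspanin of the urothelial surface, reached 409.5 ± 10.3 from 109.9 ± 5.87. The adhesion protein gene Mpzl2 and the torsin-like ATPase gene Tor4a rose by 1.93 and 1.84 on the log2 scale.

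**Figure D1:**
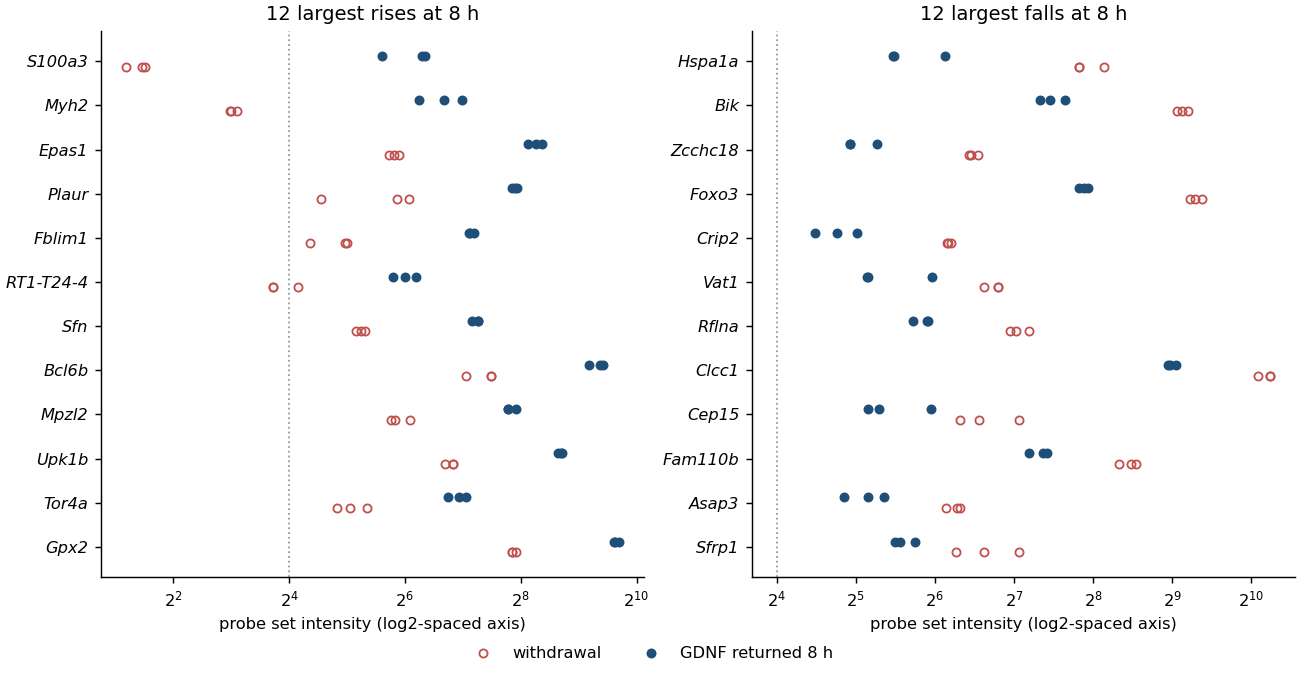
Probe set intensity on each withdrawal array (open circles) and each array at 8 h (filled circles) for the 12 genes that rose most and the 12 that fell most, on an axis spaced by log2; the dotted line marks 16. The groups do not overlap for any gene, which the choice of these genes required, and the withdrawal values of S100a3 and Myh2 all lie under 16.

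Among the 12 largest falls, Hspa1a, the stress-induced HSP70 chaperone, fell most. It read 283, 226 and 226 after withdrawal and 70.1, 44.2 and 44.9 at 8 h. The fall was 4.70-fold (log2 change -2.23 ± 0.17 SE, limma adjusted p = 3.44e-07), to a level not distinguished from the control mean of 41.9 ± 7.94 (adjusted p = 0.252). Bik, a BH3-only promoter of cell death, read 588, 536 and 558 after withdrawal and 201, 176 and 162 at 8 h, a 3.13-fold fall (adjusted p = 1.66e-08). Foxo3, a transcription factor restrained by AKT, read 601, 666 and 623 after withdrawal and 246, 237 and 226 at 8 h. Its 2.67-fold fall (adjusted p = 1.55e-08) left it within 1.10-fold of the control. Clcc1, an ion channel of the endoplasmic reticulum, fell 2.29-fold from 1165 ± 71.4 to 509.4 ± 19.8 (adjusted p = 2.15e-09).

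Crip2, a small LIM-domain protein gene, fell by 1.41 on the log2 scale, and the secreted Wnt antagonist gene Sfrp1 by 1.05. Zcchc18, Vat1, Rflna, Asap3 and Fam110b fell by 1.13 to 1.44. Cep15 fell by 1.18 in the probe set that represents it, but a second probe set of the gene changed by 0.09 (adjusted p = 0.481).

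The receptor itself was slightly lower at 8 h. Ret read 3954, 3776 and 3609 after withdrawal and 3278, 3296 and 3225 at 8 h. The groups did not overlap, and the log2 change of -0.21 ± 0.04 SE passed the test (limma adjusted p = 0.00253). Its other probe sets fell further, by 0.60 and 0.55. At 4 h Ret had been lower still, with a mean of 1932 ± 40.8, so the 8 h level was 1.69-fold above that at 4 h (adjusted p = 5.64e-08) and 1.32-fold under the control. Gfra2, a co-receptor whose main ligand is neurturin, read 69.7, 102.1 and 96.9 after withdrawal and 141, 155 and 164 at 8 h, and rose by 0.79 (adjusted p = 0.000291). Gfra3, the artemin co-receptor, rose from under 16 on all withdrawal arrays to 47.2, 34.9 and 23.1, a log2 change of 1.07 with values under 16 set to 16. Gfra1 lay under the low-value filter and was not tested. Of 17 tested receptor and adaptor genes 5 rose and 3 fell, with a median of 0.10, beside 10.1% and 19.3% of named genes. The adaptor gene Shc1 rose by 0.25. The count that rose was 3 without replicate 3 at 8 h, without replicate 2 of the withdrawal group or with no low-value filter. It was 3 of the 15 members with a mean log2 intensity of at least 5, and 4 with values under 16 set to 16.

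Of 10 tested genes reported to follow GDNF in mouse spermatogonia, 6 rose and 1 fell, with a median of 0.48. By comparison, 10.1% of all named genes rose and 19.3% fell. Cyclin D2 (Ccnd2), which drives entry into the cell cycle, read 332, 467 and 419.6 after withdrawal and 887, 819 and 894 at 8 h, and rose 2.15-fold (limma adjusted p = 4.39e-06). Id4, an inhibitor of helix-loop-helix factors that marks stem cells, read 133, 119 and 78.6 after withdrawal and 211, 186 and 183 at 8 h. It rose 1.79-fold (adjusted p = 0.00101), and of its other probe sets 1 rose by 0.35 and 1 did not pass (0.29, adjusted p = 0.269). The ETS factors Etv5 and Etv4 rose by 0.50 and 0.44, and another probe set of Etv4 by 0.77. Pou3f1, a POU-domain factor, rose by 0.45 (adjusted p = 0.0144), with an adjusted p of 0.0671 without replicate 3 of the withdrawal group. Cxcr4, a chemokine receptor gene, fell by 0.40 (adjusted p = 0.0129), but its other probe sets did not pass, and the call was lost without replicate 2 or replicate 3 at 8 h (adjusted p = 0.0511 and 0.053). Fos (-0.03), Mycn (-0.09) and Egr2 (0.58) did not pass, and Egr2 stood near 16 in both groups.

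ERK-induced feedback genes were higher at 8 h. Of 13 tested, 9 rose and none fell, with a median of 0.49, where 10.1% of named genes rose. Dusp6, the phosphatase of ERK, read 2325, 2291 and 2299 after withdrawal and 4015, 4102 and 4015 at 8 h. The 1.75-fold rise (limma adjusted p = 2.15e-09) took it to 1.10-fold above the control. Spry4, a Sprouty inhibitor of receptor tyrosine kinase signalling, read 156, 141 and 154 after withdrawal and 336, 312 and 329.8 at 8 h. It rose 2.17-fold (adjusted p = 2.1e-07) and remained 1.36-fold under the control (adjusted p = 0.00269). The ephrin receptor gene Epha2 rose by 0.82 and the AP-1 subunit gene Fosl1 by 0.96. Dusp5, a nuclear ERK phosphatase gene, rose by 0.49 (adjusted p = 0.0181), with adjusted p of 0.0523, 0.0659 and 0.081 without replicate 1 at 8 h, replicate 2 at 8 h or replicate 3 of the withdrawal group. Spry1, Spry2, Dusp7 and Etv1 did not pass.

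Immediate early genes, the rapid transcriptional response to growth factors, were still raised for 11 of 24 tested, with 1 lower and a median of 0.21. Among all named genes 10.1% rose and 19.3% fell. Egr1, a zinc-finger factor, read 2279, 2333 and 2160 after withdrawal and 3526, 3147 and 3213 at 8 h, 1.46-fold higher (limma adjusted p = 3.58e-06). Klf10 rose by 0.88, Junb by 0.85, Mcl1 by 0.31 and the RNA-decay factor gene Zfp36 by 0.53. Jund fell by 0.19 (adjusted p = 0.0284), a call lost without any 1 array at 8 h or without replicate 1 or 2 of the withdrawal group (adjusted p 0.055 to 0.123). Klf4, Klf6, Fosb and Dusp1 were among the 12 that did not pass.

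FOXO factors and their listed target genes were lower. Of 22 tested, 12 fell and 1 rose, with a median of -0.33, where 19.3% of named genes fell. Ccng2, an atypical cyclin linked to arrest, read 1278, 1252 and 1168 after withdrawal and 849, 735 and 809 at 8 h, a 1.55-fold fall (limma adjusted p = 4e-06). Igf1r, the IGF-1 receptor gene, fell 1.45-fold from 823 ± 32.5 to 568 ± 10.1. Foxo1, needed for stem cell maintenance in the mouse testis, read 803, 757 and 695 after withdrawal and 499, 465 and 575 at 8 h, and fell by 0.55 (adjusted p = 0.000187). Txnip, an inhibitor of thioredoxin and glucose uptake, fell by 0.36. Irs2, an insulin receptor substrate gene, fell by 0.52 (adjusted p = 0.0262), a call lost when any array but replicate 1 at 8 h was left out (adjusted p 0.0553 to 0.132). Trib1, a pseudokinase gene near 16, rose by 0.85 (adjusted p = 0.0255). With values under 16 set to 16 its change was 0.47 (adjusted p = 0.0746), and the call was also lost without replicate 1 or 3 at 8 h or replicate 2 or 3 of the withdrawal group (adjusted p 0.0613 to 0.118).

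In the PI3K, AKT and mTOR list 7 of 22 fell and 1 rose (median -0.12), beside 19.3% of all named genes that fell. Sesn2, a sestrin that restrains mTORC1, read 329, 303 and 288 after withdrawal and 178, 191 and 184 at 8 h, a fall of 0.73 (limma adjusted p = 4.73e-06). Ddit4, which codes for another inhibitor of mTORC1 signalling, fell by 0.28, Eif4ebp1, a substrate of mTORC1, by 0.31 and Deptor by 0.78, though Deptor stood near 16 and changed by -0.12 (adjusted p = 0.227) with values under 16 set to 16. Among 19 BCL2 family and death genes 4 rose and 3 fell, beside 10.1% and 19.3% of named genes. The survival genes Mcl1 and Bcl2l2 rose by 0.31 and 0.55, and the mitophagy gene Bnip3 fell by 0.43 beside Bik. Casp8 and Casp6, which code for caspases, rose as well, by 0.68 and 0.41.

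Of 16 tested D cyclin, G1 kinase and inhibitor genes 4 fell and 1, Ccnd2, rose, with a median of -0.01; 19.3% of all named genes fell. Cdkn1c, which codes for p57, read 219, 210.1 and 232 after withdrawal and 107, 116 and 118 at 8 h, a 1.94-fold fall (limma adjusted p = 9.39e-07) to the control level of 112 ± 7.35. Cdkn2d, which codes for p19, fell by 0.59 and Cdkn1b, which codes for p27, by 0.37 (adjusted p = 0.0238). The Cdkn1b call was lost without replicate 1 or 3 at 8 h or replicate 2 or 3 of the withdrawal group (adjusted p 0.058 to 0.1). Without replicate 3 at 8 h or replicate 2 of the withdrawal group 2 of the list fell, and Cdk4, which had fallen by 0.14, was also lost in both.

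**Figure D2:**
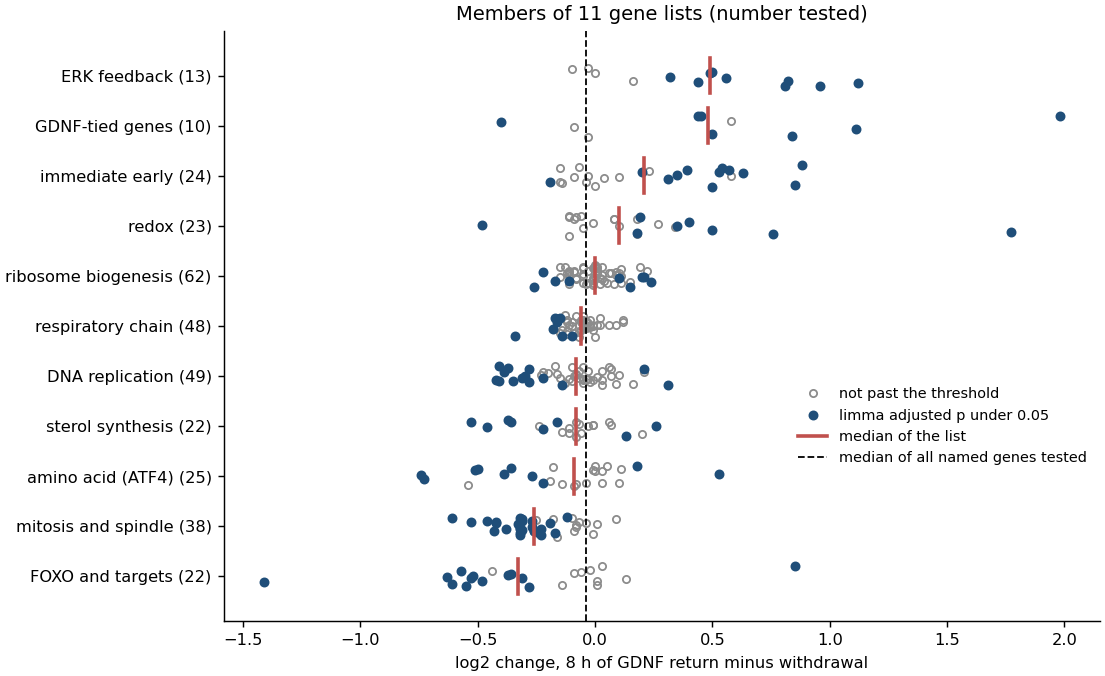
Log2 change from withdrawal to 8 h for every tested member of 11 gene lists, with the number tested in parentheses; filled points passed the limma test, red bars are list medians and the dashed line is the median of all named genes (-0.04). The ERK feedback and GDNF-tied medians lie near 0.5 and the mitosis and FOXO medians at -0.26 and -0.33.

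Genes of mitosis and the spindle were lower at 8 h, by small amounts. Of 38 tested, 26 fell and none rose, with a median of -0.26, where 19.3% of named genes fell. Nusap1, a microtubule-bundling spindle protein, read 1174, 1207 and 1177 after withdrawal and 769.5, 751 and 812 at 8 h. It had the largest fall of the list, 1.53-fold (limma adjusted p = 1.75e-06). Bub1b, of the spindle checkpoint, read 1634, 1640 and 1602 after withdrawal and 1230, 1172 and 1256 at 8 h, 1.33-fold lower. Cyclin B2 (Ccnb2), which starts mitosis with CDK1, read 4719, 4569 and 4537 after withdrawal and 3657, 3782 and 3680 at 8 h, 1.24-fold lower (adjusted p = 1.53e-05). Kif2c, a microtubule-depolymerising kinesin, fell by 0.42, and another probe set of it by 0.27.

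The genes that fell covered separase (Espl1, -0.53), motors (Kif11, Cenpe, Kif20a), cyclin B1 (Ccnb1, -0.26), topoisomerase II (Top2a, -0.32), Foxm1 (-0.33; adjusted p = 0.0649 without replicate 3 at 8 h), which codes for a transcription factor of this gene set, and the proliferation marker Mki67 (-0.27). Cdk1 (0.01), Birc5 (0.09), Aurka (-0.07) and Plk1 (-0.16) were among the 12 that did not pass. Between 24 and 26 members fell, and none rose, under every other setting and with each array left out. Against the control, where 9.22% of named genes were lower and 4.88% higher, 18 of the 38 were lower and none higher at 8 h; Nusap1 was at 777 ± 31.3 against 969.6 ± 68.5.

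**Figure D3:**
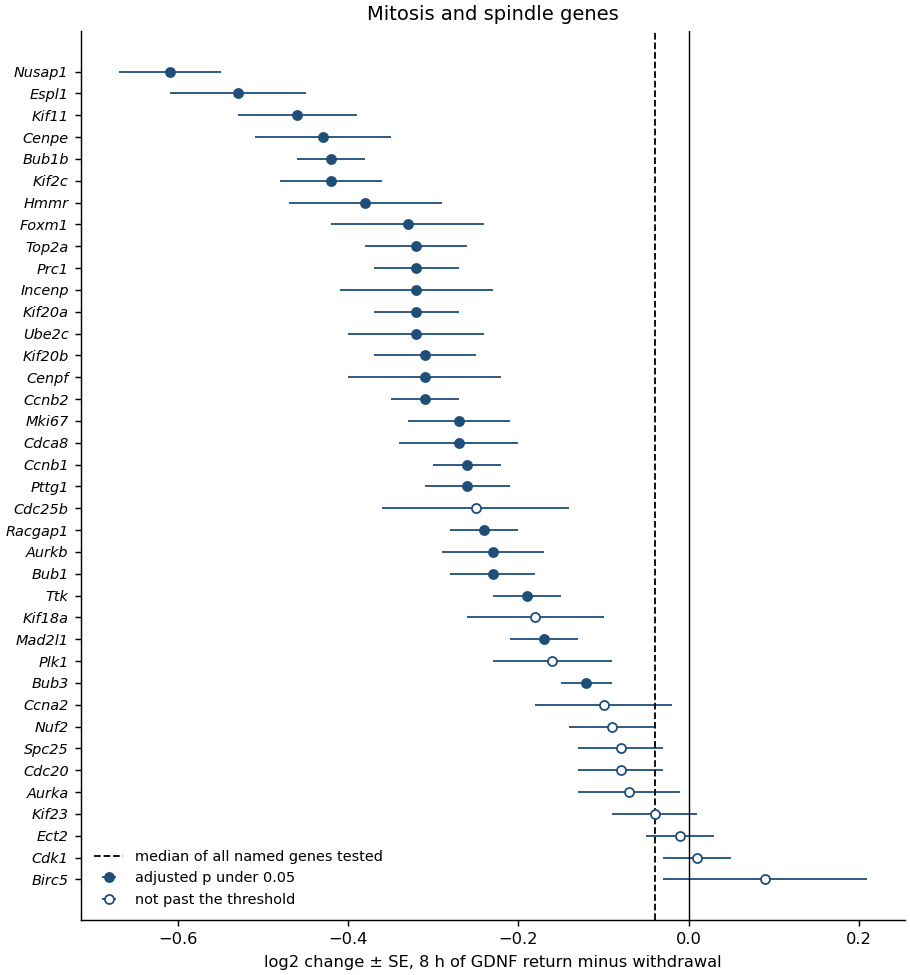
Log2 change ± SE from withdrawal to 8 h for the 38 tested mitosis and spindle genes, ordered by size; filled points passed the limma test and the dashed line is the median of all named genes. The 26 genes past the threshold all lie to the left of 0, between -0.61 for Nusap1 and -0.12 for Bub3.

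Many promoters of this list hold the paired elements known from cell cycle genes, the cell cycle homology region (TTTGAA) and the CCAAT box, which were looked for after the fall of the list had been seen. The window runs from 250 bases before to 50 after the start of each gene in RefSeq, assembly GRCr8, and both strands were searched; a match of TTTGAA and a match of CCAAT can share a base. The 4 promoters shown are those of the genes with the smallest p among the members that fell and hold both motifs: Nusap1 (chr3:127057045-127057344, + strand), Ccnb2 (chr8:79981609-79981908, - strand), Espl1 (chr7:135302466-135302765, + strand) and Prc1 (chr1:143659231-143659530, + strand). Capitals mark TTTGAA and CCAAT or their reverse complements.
Nusap1: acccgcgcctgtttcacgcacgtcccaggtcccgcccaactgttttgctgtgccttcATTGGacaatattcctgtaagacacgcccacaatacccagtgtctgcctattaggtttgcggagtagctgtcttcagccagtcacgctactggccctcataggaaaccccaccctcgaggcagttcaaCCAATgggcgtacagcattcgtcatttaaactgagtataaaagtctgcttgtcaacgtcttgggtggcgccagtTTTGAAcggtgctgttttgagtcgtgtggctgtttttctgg
Ccnb2: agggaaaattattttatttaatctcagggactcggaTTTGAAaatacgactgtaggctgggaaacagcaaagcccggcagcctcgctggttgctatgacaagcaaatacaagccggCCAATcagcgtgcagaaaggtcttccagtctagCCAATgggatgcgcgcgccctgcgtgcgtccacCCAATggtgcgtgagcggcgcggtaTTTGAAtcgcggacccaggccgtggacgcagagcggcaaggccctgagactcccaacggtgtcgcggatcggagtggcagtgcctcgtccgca
Espl1: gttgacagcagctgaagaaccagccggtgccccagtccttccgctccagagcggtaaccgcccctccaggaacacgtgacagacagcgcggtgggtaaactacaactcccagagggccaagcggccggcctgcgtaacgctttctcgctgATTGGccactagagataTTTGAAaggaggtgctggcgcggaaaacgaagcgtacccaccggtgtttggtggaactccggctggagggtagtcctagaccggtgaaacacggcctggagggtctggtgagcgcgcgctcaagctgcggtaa
Prc1: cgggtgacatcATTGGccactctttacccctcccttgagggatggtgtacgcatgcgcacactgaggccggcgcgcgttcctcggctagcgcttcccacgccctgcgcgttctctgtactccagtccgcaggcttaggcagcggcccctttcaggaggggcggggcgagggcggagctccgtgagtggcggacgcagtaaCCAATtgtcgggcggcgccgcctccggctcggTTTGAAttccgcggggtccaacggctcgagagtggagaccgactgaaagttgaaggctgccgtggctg

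Of the 26 genes that fell 21 matched a promoter, and TTTGAA was in 14 of these (66.7%), CCAAT in 17 (81.0%) and both in 12 (57.1%). Among all 32 tested mitosis genes with a promoter the shares were 68.8%, 78.1% and 59.4%. Over the 7669 tested named genes with a promoter they were 11%, 38.7% and 4.79%. CCAAT was also common in other lists, in 56.1% of tested replication genes and 77.8% of tested sterol genes with a promoter. TTTGAA was in 9.76% and 11.1% of these. The sterol regulatory motif TCACNCCAC, searched on both strands, was in 0 of the 18 tested sterol genes with a promoter. It was in 1.1% of all tested named genes with a promoter. A match is a description of the sequence and shows no binding.

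Of 49 tested DNA replication genes 12 fell and 2 rose, with a median of -0.08, a share that fell near the 19.3% of all named genes. Pold1, the catalytic subunit of DNA polymerase delta, read 1732, 1604 and 1628 after withdrawal and 1298, 1232 and 1190 at 8 h, and fell by 0.42 (limma adjusted p = 8.98e-05). The single-strand binding protein gene Rpa1 fell by 0.39, the ribonucleotide reductase gene Rrm1 by 0.30 and the GINS subunit gene Gins3 by 0.41. Pole2 and Gins4 rose by 0.31 and 0.21. Both calls were lost without replicate 3 at 8 h or replicate 1 of the withdrawal group (adjusted p 0.0555 to 0.0694), and that of Gins4 also without replicate 2 of either group. An E2F motif (TTTGGCGC or TTTCCCGC, both strands) was in 4 of the 12 promoters of the genes that fell (33.3%), in 13 of 41 of the tested list (31.7%) and in 3.29% of all tested named genes. Against the control 14 of the 49 were lower and 1 higher, beside 9.22% and 4.88% of named genes.

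Lipid synthesis genes had mixed changes against withdrawal, and many were lower than at 4 h. Of 22 sterol genes 2 rose and 6 fell (median -0.08), beside 10.1% and 19.3% of all named genes. Against 4 h, where 4.12% of named genes were higher and 6.55% lower, 12 of the 22 were lower at 8 h and none higher. Idi1, of the isoprenoid pathway, read 2660, 2448 and 2522 after withdrawal and 2766, 2880 and 2728 at 8 h. It averaged 5775 at 2 h and 3812 at 4 h, so at 8 h it was 0.45 under its 4 h level on the log2 scale (limma adjusted p = 2.62e-05). Its rise over withdrawal of 0.13 (adjusted p = 0.0484) was lost with most single arrays left out and under other settings (adjusted p 0.0527 to 0.173 where lost). Another, dimmer probe set of Idi1 rose by 0.46, from 790.3 to 1086 (adjusted p = 0.00245). Dhcr7, the last step of cholesterol synthesis, read 1223, 1296 and 1126 after withdrawal and 887, 820.1 and 940.0 at 8 h, a fall of 0.46 (adjusted p = 0.000115). Acat2 fell by 0.53, Fdft1 by 0.22 and Msmo1 rose by 0.26. A second probe set of Fdft1 did not pass (-0.18, limma adjusted p = 0.0869). Of 15 fatty acid genes 5 fell and 1 rose; Elovl6, an elongase, fell by 0.51 to 392, where the control averaged 902.5.

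Glycolysis and hypoxia genes split, with 5 of 28 higher and 10 lower (median -0.10), beside 10.1% and 19.3% of all named genes. The glucose transporter gene Slc2a3 read 148, 106 and 108 after withdrawal and 375, 312 and 327.5 at 8 h, a 2.83-fold rise (limma adjusted p = 1.38e-06). Tpi1, triose phosphate isomerase, fell by 0.62 and Ankrd37 by 0.79. Tkt, transketolase of the pentose phosphate pathway, rose from 29.4, 61.6 and 58.3 to 166, 178 and 142, with its lowest value in replicate 1 of the withdrawal group. Of 23 redox genes 7 rose and 1 fell (median 0.10). Beside Gpx2, the haem oxygenase gene Hmox1 read 375, 356 and 353 after withdrawal and 620.1, 579.5 and 634 at 8 h, a 1.69-fold rise (adjusted p = 8.9e-08). Nqo1 rose by 0.50 and Txnrd1 by 0.35, while catalase (Cat) fell by 0.48.

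Amino acid response genes under ATF4 fell for 8 of 25 and rose for 2 (median -0.09), beside 19.3% and 10.1% of all named genes. Phgdh, the entry to serine synthesis, fell by 0.50, Aldh18a1 by 0.36 and Gars1 by 0.27. Subunits of the exchange factor eIF2B were among the 8 of 33 translation factors that fell, with Eif2b5 lower by 0.36 and Eif2b4 by 0.23; without replicate 2 of the withdrawal group 5 of the 33 fell. Ribosome biogenesis genes stood at a median of 0.00, with 5 of 62 higher and 4 lower; Ebna1bp2 rose by 0.21. Of 41 ribosomal protein genes 5 fell by 0.10 to 0.12, and of 48 respiratory chain genes 7 fell (median -0.06), Ndufb10 most, by 0.34. Both shares are under the 19.3% of all named genes that fell. With each array's median subtracted, 0 ribosomal protein genes, 0 ribosome biogenesis genes and 4 respiratory chain genes were lower. Leaving out replicate 1 or 3 at 8 h, or replicate 1 or 2 of the withdrawal group, gave 2 or 3 lower ribosomal protein genes. Leaving out replicate 3 of either group gave 4 lower respiratory chain genes. Among ribosome biogenesis genes 1 to 3 rose without any 1 array at 8 h or without replicate 2 of the withdrawal group, and 0 to 2 fell without any 1 array at 8 h or without replicate 1 or 2 of the withdrawal group. The 5S ribosomal RNA probe set was 0.70 lower at 8 h, and its part in these small falls was not tested. In the heat shock list Hspa1a stood apart: of 21 tested 3 fell and 1 rose, shares under those of all named genes. Hsph1 fell by 0.18, and without replicate 3 of the withdrawal group 5 of the list fell.

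Activin, TGF-beta and BMP genes rose for 8 of 27 and fell for 4 (median 0.10), beside 10.1% and 19.3% of all named genes. The transcriptional co-repressor gene Skil read 2838, 2618 and 2546 after withdrawal and 4363, 4665 and 4476 at 8 h, a rise of 0.76 (limma adjusted p = 1.6e-07). Tgfb1 also rose by 0.76, the inhibitory Smad7 by 1.07 and the BMP-responsive Id3 and Id1 by 0.60 and 0.38. Without replicate 3 at 8 h 2 of the list fell. Inhba, the activin A subunit, read 32.4, 82.4 and 84.5 after withdrawal and 219.7, 186 and 172 at 8 h. Its rise was 1.65 (adjusted p = 0.00716) and 1.20 (adjusted p = 0.0361) without replicate 1 of the withdrawal group. In the Notch, hedgehog and Wnt list 7 of 24 rose and 7 fell. The Wnt-pathway factor gene Tcf7l2 rose by 0.94 and the receptor gene Fzd6 by 0.53, while the Notch target Hey1 fell by 0.75. The count of falls was 3 or 4 without replicate 2 or 3 at 8 h, or replicate 1 or 2 of the withdrawal group.

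The members of the list of S100 proteins, annexins and LIM proteins went both ways. Of 21, 7 were higher and 4 lower (median 0.28), beside 10.1% and 19.3% of all named genes. The median was 0.13 without replicate 1 of the withdrawal group, and 4 rose among members with a mean log2 intensity of at least 5. Anxa5, an annexin, read 738, 751.5 and 774 after withdrawal and 1276, 1185 and 1154 at 8 h, a rise of 0.67 (limma adjusted p = 5.23e-07). Anxa3 rose from under 16 on all withdrawal arrays to 38.0, 34.9 and 45.7. Of 19 epithelial genes 7 rose and 5 fell: the tight junction gene Cldn4 rose by 0.98 and Krt18 by 0.81, while the cadherin genes Cdh1 and Cdh3 fell by 0.44 and 0.49. The count of falls was 3 with each array's median subtracted, and also without replicate 2 or 3 at 8 h or replicate 1 or 2 of the withdrawal group.

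Regulators and markers of undifferentiated spermatogonia rose for 6 of 14 and fell for 3, with a median of 0.01. The shares over all named genes were 10.1% higher and 19.3% lower. Beside Bcl6b, Id4 and Etv5, the surface genes Itgb1 and Epcam rose; Epcam read 7907, 7720 and 7135 after withdrawal and 10330, 9917 and 10030 at 8 h (log2 change 0.41, limma adjusted p = 7.11e-06). Ret, Foxo1 and Cdh1 fell, and Zbtb16, Nanos2, Lin28a and Thy1 were not tested. Kit, the stem cell factor receptor that marks differentiating spermatogonia, read 193, 166 and 137 after withdrawal and 115, 118.5 and 91.1 at 8 h, and fell by 0.61 (adjusted p = 0.0016). Of 10 tested differentiation and meiosis genes 2 rose and 3 fell, with a median of -0.03, where that of all named genes was -0.04. In whole cultures fewer cells of a type and less RNA per cell cannot be told apart.

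Markers of other cells were mostly not past the test, which 29.4% of all named genes passed. Of 14 tested mesenchymal markers 2 rose, Twist1 by 0.78 and Fbn1 by 0.39 (adjusted p = 0.0503 without replicate 2 at 8 h), and none fell; Pdgfrb, Postn and Lum were not tested. Their mean log2 level ran from 8.05 to 8.86 after withdrawal and from 8.64 to 8.92 at 8 h. Of 8 Sertoli cell markers Wt1 rose by 0.51 (adjusted p = 0.024), at intensities near 16, and Ctsl fell by 0.44. The Wt1 call was lost with no low-value filter (adjusted p = 0.0541) and without replicate 1 or 3 at 8 h or replicate 1 or 2 of the withdrawal group (0.056 to 0.0976). Sox9, Amh and Gata4 were not tested. The mean log2 level of these 8 ran from 7.79 to 7.94 after withdrawal and from 7.88 to 7.95 at 8 h. Of 4 endothelial markers 3 rose. Nos3, endothelial nitric oxide synthase, read 56.7, 56.6 and 50.6 after withdrawal and 164, 175 and 159.5 at 8 h (3.05-fold), and Eng, a TGF-beta co-receptor gene, rose by 0.70. The mean log2 level of the 4 ran from 5.53 to 5.65 after withdrawal and from 6.29 to 6.36 at 8 h. Kdr was under 16 in both groups, Pecam1 did not pass and Cdh5, Tek, Tie1 and Vwf were not tested. The single tested marker of Leydig or peritubular cells (Acta2) and that of immune cells (Cd3e) did not pass.

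The 8 h state differed from the earlier times of return. All of these comparisons share the 8 h arrays, and the changes of the 3 return times share the withdrawal arrays. Against 4 h 1532 probe sets (9.66%) and 961 named genes (10.7%) differed, and against 2 h 4157 (26.2%) and 2559 (28.4%). Mesenchymal markers also differed from 2 h: of the 14 tested, 10 were higher at 8 h and none lower, with a median of 0.68. Their mean log2 level was 8.08 at 2 h and 8.78 at 8 h. Against 4 h 1 of them was higher and none lower. The part of mesenchymal cells in the differences between return times was not tested. Of the 1532, 565 were higher at 8 h and 967 lower, a split that became 721 and 796 with quantile normalization. A test of 8 h against 4 h is also the test that the changes from withdrawal differ. The count against 4 h was 952 without replicate 1 at 4 h and 924 without replicate 2 at 8 h.

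Some genes stood higher at 8 h than at 4 h. Gpd1l1, a gene named after glycerol-3-phosphate dehydrogenase, read 71.4, 60.6 and 71.7 after withdrawal and 173, 198 and 172 at 8 h, against a mean of 64.2 ± 9.65 at 4 h. It was 2.84-fold above 4 h (limma adjusted p = 2.45e-06) and at the control level of 173 ± 8.59. Snap91, a clathrin adaptor gene of neurons, averaged 656 ± 68.5 at 4 h and 1235 ± 15.9 at 8 h (1.89-fold, adjusted p = 9.2e-07), above the control mean of 902.5 ± 54.1. Arg2, mitochondrial arginase, and Reep1, which shapes the endoplasmic reticulum, were higher than at 4 h by 0.95 and 0.91. The homeobox gene Meox1, the mitochondrial carrier gene Slc25a12, Mypn and Rnf125 were higher than at 4 h by 0.96 to 1.17, and Mypn and Rnf125 had fallen below withdrawal at 4 h, with means of 188 and 56.5 against 527 and 224. At 8 h both were still under withdrawal, by 0.31 and 0.96.

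Other genes had come down from their 4 h level. Sfn averaged 258 at 2 h, 636 ± 46.8 at 4 h and 150.1 ± 5.74 at 8 h, 4.23-fold down from 4 h (limma adjusted p = 1.99e-09) but still 1.97-fold above the control. Junb averaged 753 at 2 h, 646 ± 44.6 at 4 h and 309.6 ± 9.35 at 8 h, 2.08-fold down from 4 h. Egr1 fell from 4961 ± 295 at 4 h to 3295 ± 203 at 8 h (1.51-fold), and its 8 h level was not distinguished from the control (adjusted p = 0.141). Of the 24 immediate early genes 11 were lower than at 4 h and 1, Jun, was higher, beside 6.55% and 4.12% of named genes. Against withdrawal the rise of Jun (0.39, adjusted p = 0.0484) was lost without any array but replicate 3 at 8 h (0.0788 to 0.152). Of the 13 feedback genes 5 were lower than at 4 h. Tcf7l2, Adra2a, Smad7, Maff and Srxn1 were also down from 4 h by 1.08 to 1.61, and Zhx2 by 1.30.

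**Figure D4:**
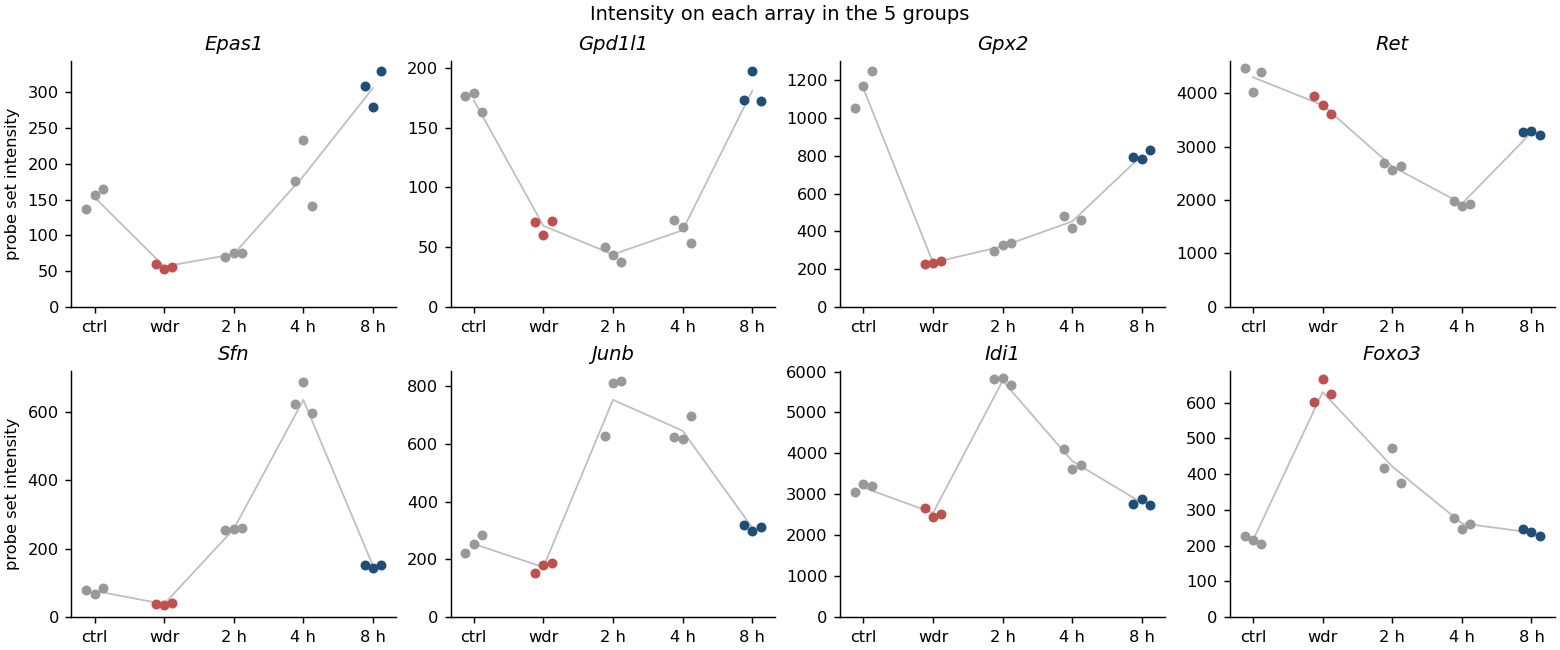
Intensity on each array for 8 genes in the control (ctrl), after withdrawal (wdr, red) and after 2, 4 and 8 h of GDNF return (8 h in blue), with lines through the group means. Epas1, Gpd1l1 and Gpx2 are at their highest return value at 8 h, Sfn peaks at 4 h, Junb and Idi1 at 2 h, Ret is lowest at 4 h, and the mean of Foxo3 is lower at each later time of return.

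Against the control 1953 probe sets (12.3%) and 1269 named genes (14.1%) still differed at 8 h. Of the probe sets 39.2% were higher than in the control, and 52.3% with each array's median subtracted. S100a3 and Myh2 were far above it, and Inhba, Pcdh19, Plaur, Iqsec3, Hivep2 and Gal were higher by 1.26 to 1.66 on the log2 scale. Gal, which codes for the neuropeptide galanin, read 1736, 1387 and 1380 after withdrawal and 3198, 2819 and 2735 at 8 h, against a control mean of 1227. Pcdh19, a protocadherin gene, rose from withdrawal by 1.70 (adjusted p = 0.00332), and by 1.19 without replicate 1 of the withdrawal group.

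Other genes had not returned to the control level. Hoxc4, a homeobox gene, read 482, 453.5 and 443 after withdrawal and 855, 943.5 and 836 at 8 h, a rise of 0.93 (limma adjusted p = 9.15e-09) that left it 0.96 under the control mean of 1704; its other probe set, near 20, did not pass. The haem transporter family gene Flvcr2, the collagen gene Col25a1 and Gatc, of mitochondrial tRNA amidation, were under the control by 1.34 to 1.46, and each of these 3 had fallen from withdrawal as well (by 0.44, 0.46 and 1.19). The call of Flvcr2 against withdrawal was lost without replicate 1 of that group (-0.39, adjusted p = 0.0665). Emb, an adhesion glycoprotein gene, averaged 1466 in the control, 865 after withdrawal and 744.5 at 8 h.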

How the data were processed

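RNA from 15 cultures in 5 groups of 3 was measured on single-colour arrays. The deposited values are linear probe set intensities, 1 column per sample; per the submitters' processing notes the authors used GCRMA and Partek 6.3, with roles, settings and genome build not given in the sources used here. GCRMA in general normalizes arrays together and corrects background by probe sequence, so low intensities depend on that estimate. Array number limits the precision.

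Log2 of the deposited intensities was used as it stood. After 57 control probe sets were removed, testing took those where log2 intensity was at least 4 on at least 3 of 15 arrays (15856 of 31042, 51.1%). Genes came from the platform annotation, updated through a RefSeq table (GRCr8) for names: 20832 probe sets had 1 symbol (20764 matched), 436 several and 9831 none. The tested 1-symbol probe set with the highest mean stands for a gene. List members under the filter or without such a probe set are called not tested.

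The linear model was that of limma 3.58.1 (under R 4.3.3), its lmFit and its eBayes with trend, over all 15 arrays, two-sided, with Benjamini-Hochberg adjustment within each comparison and a threshold of 0.05. SD is over 3 arrays and SE is that of the log2 change. On simulated data for 8 h against withdrawal (200 of 15856 probe sets changed) 22%, 72%, 92% and 100% of log2 changes of 0.25, 0.5, 1 and 2 were recovered, with 3 false calls. In the data 25.0% of probe sets passed, so these rates do not carry over to it. Python 3.11.15 was used for quality measures.

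The comparison and the 37 gene lists were chosen with earlier results of these data known. Genes named are the 12 largest rises and falls (past the threshold, groups not overlapping, higher mean at least 64), up to 4 called members of each list by adjusted p (or 2 as values), all GDNF-tied genes and Ret with its co-receptors, and the 8 largest differences each way of 8 h from 4 h, 2 h and control among genes also past the threshold against withdrawal; not every one is printed, and other list members named were chosen after their values were seen. Alternatives were other filters or none, a floor at 16, median centring, quantile normalization, no trend, array weights, leaving out multi-target probe sets, a fit of the compared groups alone, a block for replicate number, and leaving out arrays singly. List counts under these, and the TTTGAA and CCAAT motifs, were added after the data were seen.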

Additional observations from a re-analysis of the deposited data

Results flagged for a closer look

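The difference between 8 h and 4 h of GDNF return was itself tested with limma, and so was that between 8 h and 2 h: 1532 and 4157 probe sets passed. The genes named for it were higher at 8 h than at 4 h by 1.5 (Gpd1l1), 1.17 (Mypn), 1.04 (Rnf125), 0.98 (Slc25a12), 0.96 (Meox1), 0.95 (Arg2), 0.92 (Snap91) and 0.91 (Reep1) on the log2 scale. Those that were lower changed by -2.08 (Sfn), -1.61 (Tcf7l2), -1.30 (Zhx2), -1.23 (Adra2a), -1.20 (Smad7), -1.16 (Maff), -1.08 (Srxn1) and -1.06 (Junb).

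Outside the gene probe sets, the 5S ribosomal RNA control probe set was 0.69 higher on the log2 scale after withdrawal than in the control, where it stood at 10.30 ± 0.07 (SD, n = 3), and it averaged 10.72 at 2 h, 10.49 at 4 h and 10.30 at 8 h of return. The genes measured beside it are in the ribosome lists of the report; its part in their changes was not tested.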

How the results depend on the processing

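The count of probe sets past the threshold for 8 h against withdrawal stayed within 1.5 times 3963 under all settings run, from 3022 to 3591 with each array left out in turn and at 4624 with array weights. Against 4 h the count of 1532 became 892 in a fit of only the groups compared, and ranged from 924 to 1374 with each array left out; against the control 1953 became 1241 in a fit of only the groups compared. These fits hold fewer arrays. Whether replicate numbers pair the cultures was not settled, because the measures differed. Deviations of same-numbered withdrawal and 8 h arrays correlated at 0.05, 0.08 and -0.09. On the main component of variation within groups, however, replicate 1 scored negative in every group. With the number as a block 4129 probe sets passed, 1590 of them higher. Of 162 named genes past the threshold 136 stayed past it under every setting, 26 were lost in at least 1, 9 of these only with an array left out, and none reversed; 4 others were gained (Egr2, Hspa2, Sycp3 and Tex101). Low intensities limit Hbegf (1.78, or 0.50 with an adjusted p of 0.0947 with values under 16 set to 16) and Kdr, whose groups then both lie at 16. The simulation recovered 22% of log2 changes of 0.25, but it changed 200 of 15856 probe sets, where 3963 passed in the data. The adjustment is stricter when fewer probe sets change, so its rates do not carry over. Genes that did not pass are undecided.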

Other observations

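Interferon and antigen processing genes went both ways at 8 h. Of 18 tested 4 rose and 5 fell against withdrawal (limma adjusted p under 0.05), with a median of -0.07. Over all named genes 10.1% rose and 19.3% fell. Gbp2, an interferon-induced GTPase gene, read 32.9, 41.1 and 43.6 after withdrawal and 155.5, 102.0 and 132.5 at 8 h, a 1.72 rise on the log2 scale. The peptide transporter gene Tap2 fell by 0.62 and the immunoproteasome gene Psmb9 by 0.28, while Psmb10 rose by 0.32. The count that rose was 2 without any 1 array at 8 h, or without replicate 1 or 3 of the withdrawal group. In the cytokine list 2 of 17 rose and 5 fell: the chemokine gene Cxcl1 read 677, 633 and 781 after withdrawal and 378, 387 and 359 at 8 h, a fall of 0.89, and Stat2 fell by 0.51, while Jak1 rose by 0.31. Without replicate 2 at 8 h 2 of the list fell, and without replicate 3 at 8 h 3 fell. Of 12 EGF, FGF and IGF genes 2 rose (1 without any 1 array at 8 h or without replicate 1 of the withdrawal group) and 3 fell, and of 12 HOX and partner genes Hoxc4 alone passed. The membrane protein gene Emp3 rose by 1.61 with withdrawal values of 204.9, 406 and 392.5, the lowest in replicate 1.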
